A study of Drosophila melanogaster with 4 samples.

Results

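The regions described here are the HP1b-enriched regions of chromosome arm 3L of Drosophila melanogaster, without the 2 Mb next to the centromere. A region belongs to the set when its midpoint lies at or below position 22543557 of the 24543557 bp arm (FlyBase r5). Of the 9130 regions in the list the authors deposited for the whole series, 1399 met this rule. By the same rule 903 of the 5248 regions of ChIP replicate 1 and 796 of the 4633 regions of ChIP replicate 2 lay on the arm. Membership rests on position alone, not on any measured signal.

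The study mapped HP1b with ChIP-seq, which sequences the DNA that an antibody pulls down with its protein, in whole embryos of 14 to 16 h of Oregon-R, a wild-type laboratory strain. There were 2 HP1b ChIP libraries, made with the antibody Q4114, and 2 Input libraries of unprecipitated chromatin, which carry the same replicate numbers. All 4 samples share genotype, strain and age, and Input region lists were not analysed here. Whole embryos mix many cell types, so a region is an average over them, and from the labels it is not known if the replicates were collected separately.

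HP1 proteins are chromatin adaptors. Their chromodomain binds histone H3 methylated on a lysine that marks silent chromatin, and their chromo shadow domain forms dimers and recruits other proteins. In Drosophila, HP1a is best known from the heterochromatin around centromeres, HP1c from gene-rich euchromatin, and HP1b from both. The arm 3L runs from the telomere at its distal end, where coordinates start, to the centromere at its proximal end, and most of its length is gene-rich euchromatin. Genes are not named here, since no gene models on these FlyBase r5 coordinates were used.

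HP1b regions were short, numerous and spread over the entire analysed length of 3L. The 903 regions of replicate 1 had a median width of 2184 bp and covered 9.43% of the 22.5 Mb, and the 796 regions of replicate 2 had a median width of 2117.5 bp and covered 8.00% (8.71% ± 1.01, SD, n = 2). The 1399 series-wide regions had a median width of 2083 bp and covered 14.1%. Replicate 1 had 40.1 regions per Mb, replicate 2 had 35.3 and the series-wide list had 62.1. Computed in the same way on other arms, the cover of replicates 1 and 2 was 8.77% and 7.54% on 2L, 8.97% and 7.97% on 3R, and 13.1% and 11.0% on X. The difference between 3L and each of these arms was not tested.

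Every region carries a score from the authors, which the sources used here do not define. The scores behave like the base-2 logarithm of a ratio with an unknown zero point, so a difference of 1 is read as a factor of 2. Scores on 3L ran from 0.25 to 4.11 in replicate 1, with a median of 0.65, and from 0.27 to 2.38 in replicate 2, with a median of 0.70. In whole embryos, binding in few cells and weak binding in many cannot be told apart from a score. The lists hold no read counts, and the depth behind the scores is unknown.

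Most 3L regions of one replicate had a partner in the other, meaning a region that overlapped by at least 1 bp. In replicate 1, 694 of 903 regions (76.9%, 95% Wilson interval 74.0 to 79.5%) had a partner in replicate 2, against 74.5% of the replicate 1 list over all chromosomes. In replicate 2, 696 of 796 regions (87.4%, interval 85.0 to 89.6%) had one in replicate 1, against 85.9% of the whole list. Both 3L shares lay close to those of the whole lists, which include the 3L regions. The intervals cover counting error only and treat regions as independent, which neighbouring regions are not.

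Partnered regions coincided closely. The 703 overlapping pairs on 3L had midpoints a median of 81.5 bp apart, and 75% of the pairs were within 185 bp. Starts differed by a median of 95 bp and ends by a median of 96 bp, small against the median widths of 2295 bp in replicate 1 and 2193 bp in replicate 2 within these pairs. In 201 pairs (28.6%) both ends matched to 100 bp or less. The replicate 1 region was the wider one in 481 of the 703 pairs (68.4%, Wilson interval 64.9 to 71.7%).

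The strongest shared loci of 3L showed nearly the same boundaries and similar scores in both libraries. The highest-scoring series-wide region with a partner in both replicates lay at 4623652 to 4628728. It was found at 4623713 to 4628614 in replicate 1 (score 2.54) and at 4623718 to 4628650 in replicate 2 (score 2.38). The next strongest, on its distal side at 4552492 to 4555474, scored 2.34 in replicate 1 and 2.12 in replicate 2.

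The loci that followed lay elsewhere on the arm. The region at 12564488 to 12566818 scored 2.22 in replicate 1 and 2.32 in replicate 2, and the distal region at 198106 to 201234 scored 2.11 and 2.01. The other 6 of the 10 strongest lay at 5761004 to 5765534, 10629888 to 10632272, 9452878 to 9456882, 11409078 to 11412846, 10674630 to 10678296 and 18177878 to 18180218, with series-wide scores between 1.68 and 1.79. Each of the 10 matched a single region in each replicate, and replicate 1 scored higher than replicate 2 in 8 of them.

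Scores of paired regions were close. They averaged 0.85 in replicate 1 and 0.83 in replicate 2, a mean difference of 0.03 with an SD of 0.17 over the 703 pairs. The difference was under 0.25 in 608 pairs (86.5%) and over 0.5 in 6. Across pairs, which share 2 libraries and are not independent, Spearman's rho was 0.83 and Pearson's r was 0.89, given as descriptions.

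Few pairs differed by much in score. Replicate 1 was higher by 0.55 at 6067187 to 6069952 (scores 1.17 and 0.62), by 0.55 at 8301055 to 8303284 (1.12 and 0.58) and by 0.51 at 11320824 to 11323404 (1.19 and 0.68). Replicate 2 was higher by 0.51 at 2156687 to 2158777 (scores 0.43 in replicate 1 and 0.94 in replicate 2) and by 0.39 at 17034826 to 17036839 (0.31 and 0.70). The largest difference of all, -0.86 at 542185 to 543944, came from a region drawn differently. Replicate 2 had a single region there, 539610 to 543998 with a score of 1.17, and replicate 1 had it in 2 pieces scoring 1.49 and 0.31.

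**Figure D1:**
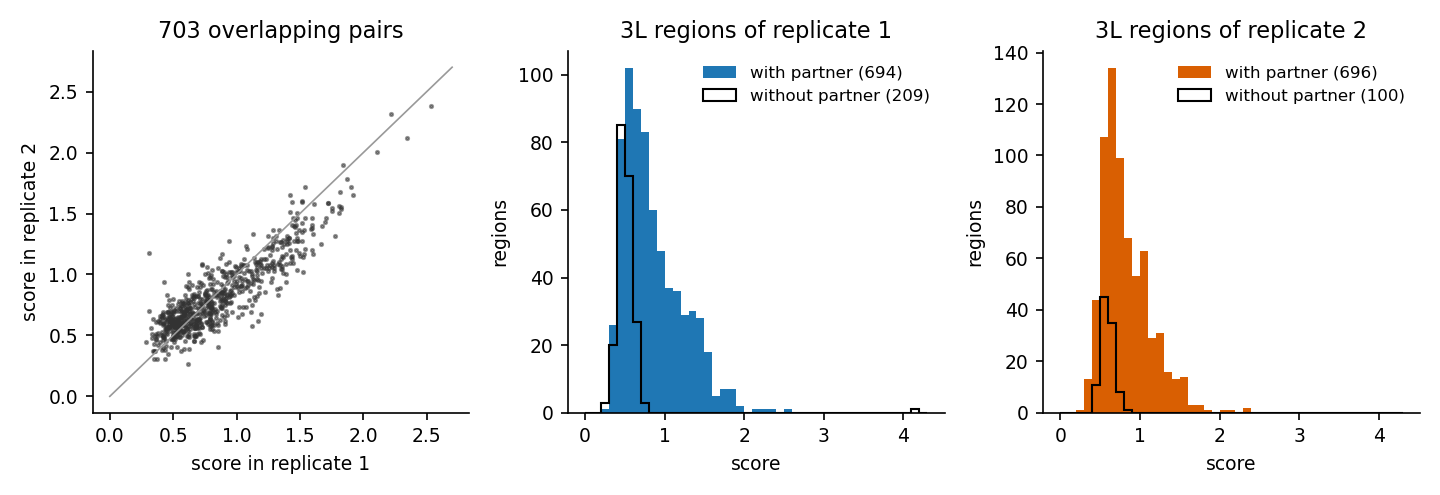
Scores of 3L regions in the HP1b ChIP replicates. Left, score in replicate 1 against score in replicate 2 for the 703 overlapping pairs, with the line of equal scores; middle and right, numbers of regions per score class of 0.1 for regions with (filled) and without (outline) a partner in the other replicate. Regions without a partner crowd at lower scores, up to 0.83, with a single exception at 4.11 in replicate 1.

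Regions without a partner scored lower as a group, with 1 exception far above the others. The 209 such regions of replicate 1 had a median score of 0.50, against 0.77 for the 694 with a partner, and the 100 of replicate 2 had a median of 0.59, against 0.75 for the 696 with one. Among the lowest-scoring 25% of the 3L regions, 50.4% of replicate 1 and 74.4% of replicate 2 had a partner. Among the highest-scoring 25%, 225 of 226 regions of replicate 1 and 199 of 199 of replicate 2 had one. In the 25% next below these, 212 of 225 and 192 of 199 had one, so some unpartnered regions scored above the median of their list. Above a score of 0.78, 335 of 336 replicate 1 regions were found in replicate 2, and above 0.83 all 274 replicate 2 regions were found in replicate 1. These limits are the second-highest unpartnered score of replicate 1 and the highest of replicate 2, so they were set by the data.

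The exception was the region with the highest score of the whole replicate 1 list. It lay at 5104999 to 5106462, was 1464 bp wide and scored 4.11, and the nearest replicate 2 region was 25082 bp away. Its score exceeded by exactly 2.00 that of the region at 198148 to 201220 in the same list (2.11), a factor of 4 if the scores are base-2 logarithms. The series-wide list had a region of 1001 bp there, at 5105674 to 5106674, with a score of 2.97. The next strongest unpartnered regions of replicate 1 were far weaker, at 15195255 to 15197542 (score 0.78) and 1375205 to 1377266 (score 0.70). In replicate 2 the strongest were at 17069619 to 17071102 (0.83), 2084888 to 2086250 (0.77) and 16923000 to 16924881 (0.75), and those at 17069619 and 2084888 had no series-wide region either.

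Many unpartnered regions lay near a region of the other library without touching it, on an arm where regions are closely spaced. The median gap was 9701.5 bp in replicate 1 and 10913 bp in replicate 2. The share of other positions that lie as near was not computed, so nearness cannot be read as a trait of unpartnered regions. Of the 209 in replicate 1, 85 (40.7%) were within 5 kb of a replicate 2 region, and the median distance was 7029 bp. Of the 100 in replicate 2, 56 were within 5 kb of a replicate 1 region, and the median distance was 3911 bp. At 20 kb or more from any region of the other replicate were 47 in replicate 1 and 14 in replicate 2.

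The series-wide list divided the arm into regions with and without replicate partners. Of its 1399 regions on 3L, 675 (48.2%, Wilson interval 45.6 to 50.9%) overlapped both replicates and are called shared regions below, against 41.9% of the series-wide list over all chromosomes. A further 202 (14.4%) overlapped replicate 1 alone and 87 (6.22%) overlapped replicate 2 alone. Shares of these classes over all chromosomes were not computed. The other 435 (31.1%, interval 28.7 to 33.6%) overlapped neither replicate, against 38.1% over all chromosomes. On the trimmed arms 2L, 3R and X the share that overlapped both was 49.3%, 49.9% and 46.8%, with no test of the differences. Few 3L replicate regions were missing from the series-wide list, 3 of 903 in replicate 1 and 8 of 796 in replicate 2. The share missing over all chromosomes was not computed.

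Width separated these classes sharply. Of the 631 series-wide 3L regions narrower than 2 kb, 29 were shared (4.60%, Wilson interval 3.22 to 6.52%), and of the 768 of 2 kb or more, 646 were (84.1%, interval 81.4 to 86.5%). The narrowest replicate region was 1301 bp wide, and none of the 228 series-wide regions below that width was shared (Wilson interval 0 to 1.66%). Between 1301 bp and 2 kb, a width that both replicate lists do hold, the share was still 29 of 403 (7.20%, interval 5.06 to 10.1%). It was 81.1% of 546 from 2 to 3 kb, 89.9% of 179 from 3 to 5 kb, and 42 of 43 at 5 kb or more. The limit of 2 kb was chosen after the values were seen.

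Scores were higher at 2 kb or more, but the regions narrower than 1301 bp did not have the lowest median. The median series-wide score was 0.36 under 2 kb and 0.64 at 2 kb or more, and a score of at least 0.5 was held by 13 of 631 regions under 2 kb and by 534 of 768 at 2 kb or more. Of those 13, 12 were narrower than 1301 bp, and the median score was 0.40 below 1301 bp and 0.34 from there to 2 kb. Across all 1399 regions Spearman's rho of width and score was 0.67. It was 0.41 in shared regions, 0.66 in those of replicate 1 alone and 0.28 in those of replicate 2 alone. Across the 435 in neither replicate it was -0.49, and all these values are given as descriptions. For the replicate lists the measure is a partner in the other list, not overlap with both, so the steepness of the divisions cannot be compared. Under 2 kb, 132 of 297 replicate 1 regions (44.4%) and 220 of 313 replicate 2 regions (70.3%) had a partner, and at 2 kb or more 562 of 606 (92.7%) and 476 of 483 (98.6%) did. The sources used here do not say how the authors made the series-wide list, and the part of that step in this pattern was not tested.

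**Figure D2:**
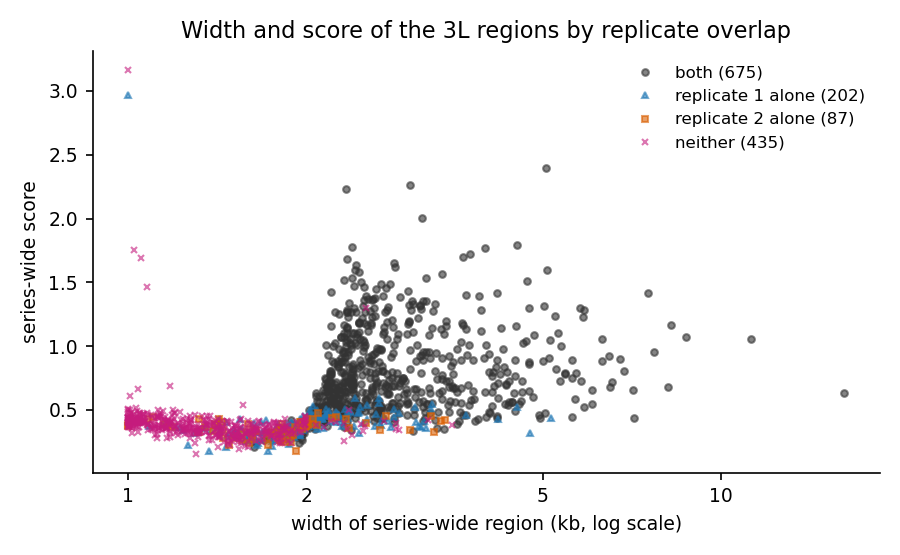
Width (kb, log scale) against score of each of the 1399 series-wide 3L regions, marked by whether it overlapped both replicates, 1 of them or neither. Shared regions fill the field above 2 kb, narrower regions form a band mostly below 0.5, and a few regions near 1 kb reach scores up to 3.16.

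Among the 435 regions in neither replicate, 5 had scores of at least 1, and 4 of these were barely over 1 kb wide. The strongest, at 7677980 to 7678980 (1001 bp), had the highest series-wide score on 3L, 3.16, ranking 10 among all 9130 regions, yet the nearest region of either replicate was over 31 kb away. The next were at 8226658 to 8227678 (1021 bp, score 1.75), 9930536 to 9931586 (1051 bp, 1.69) and 865412 to 866488 (1077 bp, 1.46). The fifth, at 11606076 to 11608594, was 2519 bp wide with a score of 1.30, and the nearest replicate region was 9573 bp away. The regions at 865412 and 11606076 were singled out after the values were seen. All the other regions in neither replicate scored below 1.

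The widest 3L regions were shared, and some joined several replicate regions. The widest, at 632642 to 648762 (16121 bp, series-wide score 0.63), held 3 regions of replicate 1 and 4 of replicate 2. The replicates started alike, with a region at 632695 to 637015 in replicate 1 and at 632734 to 636336 in replicate 2, while the last 3 kb held a region of replicate 1 alone. The next, at 2580748 to 2591994 (11247 bp, score 1.06), also held 3 and 4. Its strongest part was a single region of 6453 bp in replicate 1 (score 1.43) and a pair of regions of 2873 and 3401 bp in replicate 2 (scores 1.41 and 1.12).

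By contrast, the regions at 9683758 to 9692502 (8745 bp, score 1.07) and 14747724 to 14755948 (8225 bp, score 1.17) were single regions in each replicate. The locus at 14747724 was 8140 bp wide in replicate 1 and 7835 bp in replicate 2. Next in width, the region at 19992432 to 20000556 (8125 bp, score 0.68) was divided in the same way in both, into 2 regions each. Of the 43 regions of 5 kb or more, the only one not shared was the most distal region of the arm, at 50996 to 56156, which overlapped replicate 1 alone. Joined regions were rare, with 23 series-wide regions holding more than 1 region of replicate 1 and 23 more than 1 of replicate 2.

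Along the arm, cover varied, and it did so alike in both replicates. In bins of 1 Mb, shared regions covered between 5.24% and 15.3%, a ratio of 2.92. By the cover of shared regions, the densest bin was the most distal Mb, with 61 regions in replicate 1 and 52 in replicate 2 and a cover of 14.9% and 13.1%. Next came the bin from 3 to 4 Mb, with a cover of 13.7% in replicate 1 and 11.5% in replicate 2, and the bin from 1 to 2 Mb, with 13.5% and 11.1%. Far from these, the bin from 16 to 17 Mb had 13.0% and 12.0%. The 4 distal Mb together held 160 of the 675 shared regions (23.7%) on 17.7% of the length, a count made after the profile was seen.

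By the same measure, the 3 emptiest bins lay in the interior and at the proximal limit. Cover was 5.27% in replicate 1 and 4.82% in replicate 2 in the bin from 10 to 11 Mb, and 6.48% and 5.55% in the bin from 5 to 6 Mb. The last bin, 543557 bp long, had 5.23% and 5.00%. Replicate 1 exceeded replicate 2 in all 23 bins, and the ratio of replicate 2 to replicate 1 ran from 0.74 to 0.96. Across the 23 bins the replicates' cover had a Pearson's r of 0.97 and a Spearman's rho of 0.95, given as descriptions of 2 libraries over the same bins.

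**Figure D3:**
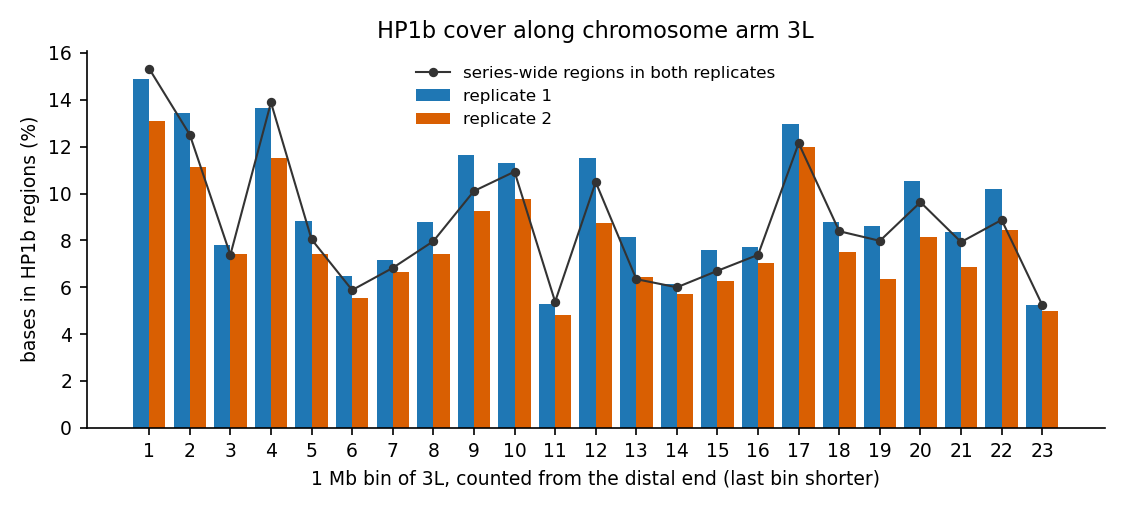
Percent of bases in HP1b regions in each 1 Mb bin of 3L, counted from the distal end. Bars give replicates 1 and 2 and the line gives series-wide regions that overlap both. Both replicates peak in bins 1, 2, 4 and 17 and are low in bins 6, 11, 14 and 23.

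The share of regions with a partner also differed between bins, on few regions each. Full bins held 24 to 61 replicate 1 regions, and whether the differences exceed counting error was not tested. The share of replicate 1 regions with a partner ran from 65.8% to 85.2% over the 22 full bins and was 10 of 11 in the short last bin, with a median of 77.0% over all 23, and that of replicate 2 from 78.3% to 97.1% with a median of 87.5%. The lowest share of replicate 1 was in the bin from 12 to 13 Mb, where 13 of 38 regions had no partner. The median score of shared regions ran from 0.55 to 0.86 per bin. Shared regions followed one another without interruption at most 11 times, at 4133230 to 4260482, and regions in neither replicate at most 7 times, at 13219020 to 13397018.

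Regions were unevenly spaced. The gap from one shared region to the next had a median of 12361 bp, with 25% of gaps under 4371 bp and 25% over 35982 bp, and the SD of the gaps was 1.54 times their mean. Median gaps were 9701.5 bp in replicate 1, 10913 bp in replicate 2 and 6246 bp among all series-wide regions. For replicate 1 the ratio of SD to mean was 1.51, for replicate 2 it was 1.49 and for all series-wide regions 1.53, so all 4 lists mixed short and long gaps to a like degree.

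**Figure D4:**
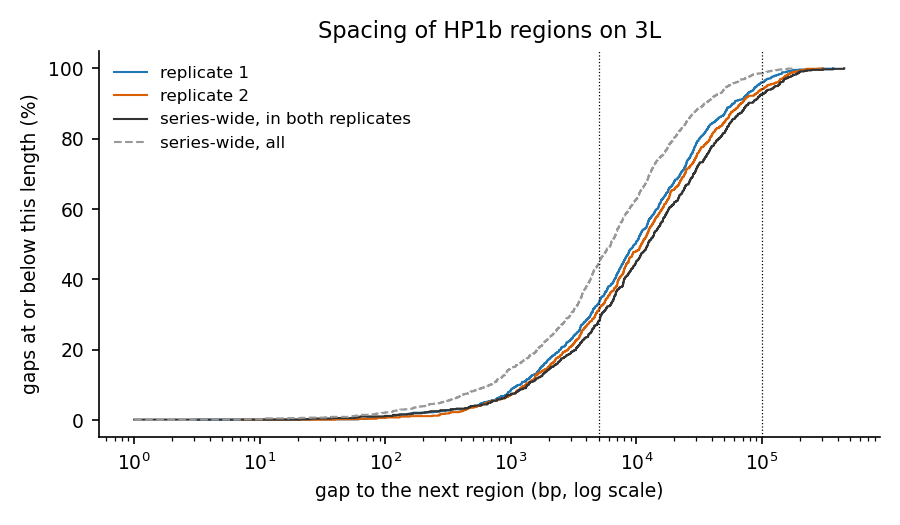
Cumulative percent of gaps between neighbouring 3L regions against gap length (bp, log scale), for the replicates, the shared regions and all series-wide regions. Dotted lines mark 5 kb and 100 kb, the limits used for dense groups and empty runs. The replicates and the shared regions run close together, and the series-wide list lies to their left, at shorter gaps.

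At the short end, regions formed dense groups, defined as at least 4 series-wide regions with every gap at most 5 kb. There were 79 such groups on 3L, 60 of them with 4 or 5 regions. Built from shared regions alone by the same limits, there were 9. The 79 groups held 387 of the 1399 regions (27.7%) on 6.98% of the arm, an excess that the definition builds in. The groups were 9.31 to 52.5 kb long with a median of 18.0 kb. Of the 79, 21 started in the distal 4 Mb, 17.7% of the length. The 4 bins there held 100, 83, 48 and 78 of the 1399 series-wide regions, and an excess of groups over regions was not tested. The same count was 60 on 2L, 88 on 3R and 121 on X, arms of other lengths, with no test. Regions in dense groups were shared in 208 of 387 cases (53.7%, Wilson interval 48.8 to 58.7%), and those outside in 467 of 1012 (46.1%, interval 43.1 to 49.2%).

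Isolation went with a lower shared percentage. With the nearest neighbour 20 kb or more away, 34 of 86 regions were shared (39.5%, interval 29.9 to 50.1%) and 42 were in neither replicate (48.8%). With the neighbour at 500 to 2000 bp, 192 of 343 were shared (56.0%, interval 50.7 to 61.1%) and 81 were in neither (23.6%). Under 500 bp the shared percentage was 49.1%. Regions in dense groups were also somewhat wider, with a median of 2205 bp against 2031 bp outside, and the part of width in these shares was not tested.

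The biggest groups had 10 regions each. The one at 9411760 to 9460554 (48.8 kb) was found almost entire in both libraries, with 9 shared regions and 10 regions in each replicate. Its strongest member, at 9452878 to 9456882, scored 1.90 in replicate 1 and 1.72 in replicate 2, and the shared member of lowest series-wide score, at 9443778 to 9446016, scored 0.52 and 0.62. Replicate regions covered 53.1% of the group in replicate 1 and 56.3% in replicate 2.

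The other, at 603068 to 655574 (52.5 kb), contains the widest region of the arm and was more mixed, with 6 shared regions, 1 in replicate 1 alone and 3 in neither. Its strongest member, at 625944 to 631736, scored 1.40 in replicate 1 and 1.25 in replicate 2. The next groups in size were at 21016006 to 21051546 (9 regions, 3 shared), 12998754 to 13038916 (8 regions, 6 shared) and 1293868 to 1324256 (7 regions, 5 shared), the last being 1 of 2 groups of that size. Built from each replicate alone by the same rule, there were 26 groups in replicate 1 and 18 in replicate 2, and 11 of each overlapped a group of the other.

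**Figure D5:**
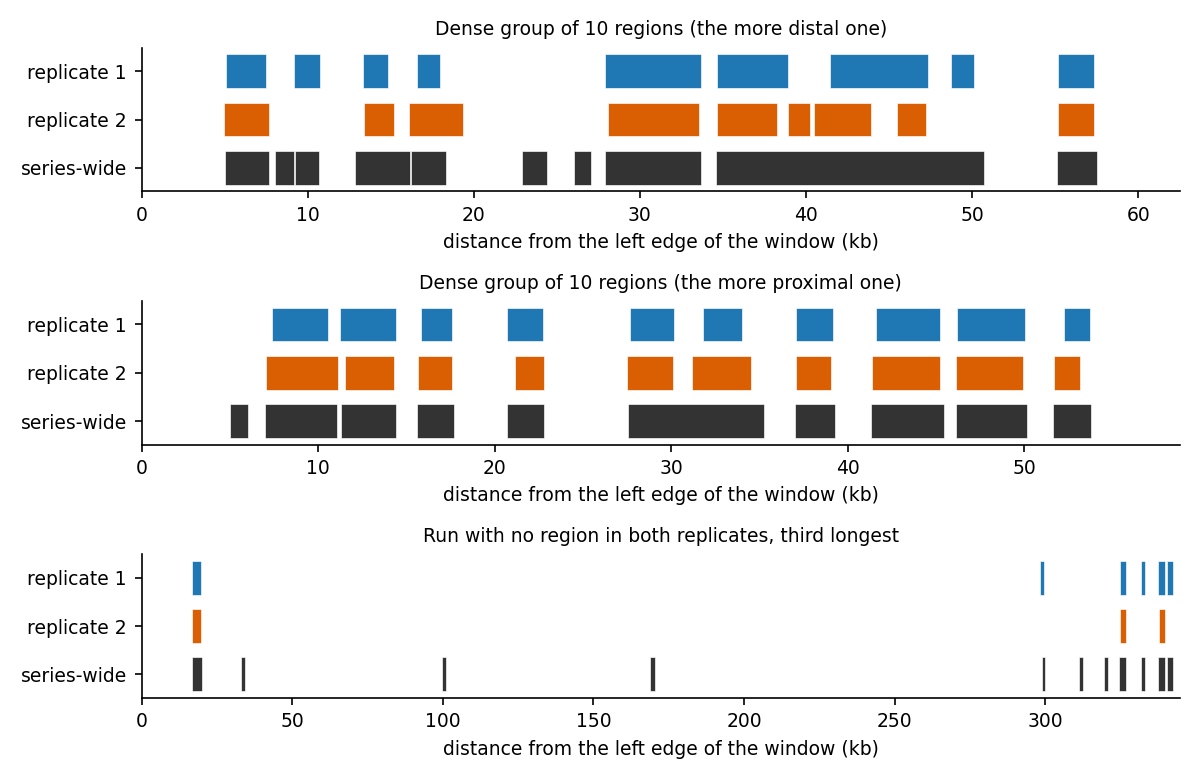
HP1b regions of replicate 1, replicate 2 and the series-wide list at 3 loci of 3L, by distance (kb) from the left edge of each window. In the middle dense group replicate regions line up one below the other. In the upper one some do, and others lack a partner or are divided differently. The run at the bottom holds no replicate 2 region, 1 replicate 1 region, with the score of 4.11, and 6 series-wide regions.

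At the long end, 50 gaps between shared regions were at least 100 kb and together made up 8.13 Mb. On 2L, 3R and X there were 53, 65 and 40 such gaps. The longest, 452 kb at 9893381 to 10344907, was not bare, since 10 series-wide regions lay in it, 2 of them in replicate 1 alone, 3 in replicate 2 alone and 5 in neither. The next in length, 369 kb at 13035915 to 13404651, held no replicate 1 region and 2 replicate 2 regions, and began inside the proximal end of the group of 8 regions, after its last shared region. Then came a run of 305 kb at 4826939 to 5131521, which held no replicate 2 region, and its single replicate 1 region was the one that scored 4.11.

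The remaining 2 of the 5 longest were 247 kb at 11827109 to 12074121 and 226 kb at 20535233 to 20761683. In the 5 runs replicate regions covered at most 1.56% of the bases in replicate 1 and 1.24% in replicate 2. With all series-wide regions the longest empty stretch was 176 kb, at 13661265 to 13837607, where no region of either replicate lay whole, and 20 gaps reached 100 kb.

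Long empty runs of the replicates lay in largely the same places. Replicate 1 had 36 runs of at least 100 kb, 5.23 Mb in all, and 35 of them overlapped such a run of replicate 2. Replicate 2 had 47, 7.08 Mb in all, and 36 overlapped one of replicate 1. Bases common to both made up 94.8% of the runs of replicate 1 and 70.0% of those of replicate 2, and 13 runs had both ends within 1 kb of each other. Replicate 1 had the higher number of regions, 903 against 796.

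Series-wide scores of shared regions were seldom above those of the replicates. Of the 641 shared regions with 1 region of each replicate, the series-wide score lay below both replicate scores in 358 (55.9%), between them in 278 (43.4%) and above both in 5. A series-wide score on 3L can therefore not be set beside a replicate score as the same quantity.

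At the distal end the first series-wide region started at position 50996, the first of replicate 1 at 53763 and the first of replicate 2 at 127716. At the proximal limit the last members were at 22400048 to 22402496 (score 1.58, shared), 22453066 to 22455134 (0.52, shared) and 22482102 to 22483122 (0.42, in neither). The first regions beyond the limit were at 22565938 to 22566940 (0.47), 22600718 to 22602340 (0.39) and 22709400 to 22711938 (1.15). The part left out held 215 series-wide regions, 75 of replicate 1 and 45 of replicate 2.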

How the data were processed

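The data are lists of enriched regions for the 2 HP1b ChIP libraries and 1 list for the series, with positions on FlyBase r5, per the file headers. The submitters' processing notes name Bowtie 0.12.7, a read aligner. The sources used here name no region caller or threshold and do not say how the series-wide list was made. All starts and ends of the series-wide 3L regions are even numbers, against 51.7% and 47.7% of the starts in replicates 1 and 2. The score of each region was deposited by the authors without a definition. Raised from base 2, differences from the highest score of the list gave whole-number ratios, with denominators of at most 2000 and a relative tolerance of 1e-12, for 59.6% of replicate 1, 69.2% of replicate 2 and 50.5% of series-wide 3L scores, and for at most 0.25% with base e or 10.

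Overlaps, gaps and cover were computed with Python 3.11.15, numpy 2.4.6 and pandas 2.3.3, Wilson intervals with scipy 1.17.1 and plots with matplotlib 3.10.9. The interval functions were tested on simulated lists. No significance test was run, because 2 libraries of 1 group allow none between groups and regions of a library are not replicates. The members, limits and named regions were chosen with earlier results of these data known. Named regions were the 10 strongest shared, the 5 widest, the 5 largest dense groups, the 5 longest empty runs, the 3 densest and 3 emptiest bins, the 3 strongest regions of each replicate without a partner, the 3 strongest in neither, the 3 pairs of largest score difference each way, and those at the limits. Alternatives changed the overlap, the score and width limits, the lists, the bins, the gap limits and the part of the arm left out.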

Additional observations from a re-analysis of the deposited data

How the results depend on the processing

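Of 39 alternative values for 11 results, 16 stayed within the interval, spread or factor of 1.5 set for them and 23 moved; the cause was not tested unless the setting itself shows it. With the whole arm, partnered replicate 1 regions were 73.6%, shared regions 43.5% and regions in neither 35.1%. With an overlap of 50% of both regions, 84.0% of replicate 2 regions had a partner. With the 50% of each list that scored highest, this share was 89.9% and cover 4.83%. With the 50% of the series-wide list that scored highest, shared regions were 89.1% and regions in neither 5.77%. Among series-wide regions of 1301 bp or more, the minimum width in the replicates, 57.6% were shared and 19.0% in neither. The correlation of replicate cover was 0.96 in bins of 250 kb and 0.96 for regions per bin, and rho over pairs of largest mutual overlap was 0.84. The median gap was 6246 bp in the whole series-wide list, 9701.5 bp in replicate 1 and 10913 bp in replicate 2. Empty runs numbered 20 in the whole series-wide list, 124 at 50 kb and 7 at 200 kb. Dense groups numbered 17 with gaps of at most 2 kb, 9 among shared regions, 26 in replicate 1 and 18 in replicate 2. Leaving out a replicate gave a cover of 8.00% to 9.43%, and agreement has no value with 1 replicate. No paired analysis was possible because none of the results comes from a test.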
